A study of Mus musculus with 12 samples.

Results

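Nitric oxide synthesis and arginine use in cultured mouse cartilage are described here through 8 genes. They are Nos2 and Nos3, which make nitric oxide from arginine, Gch1, which supplies their cofactor, Ass1 and Asl, which rebuild arginine from citrulline, Arg1 and Arg2, which break arginine down, and Odc1, which takes the ornithine that results into polyamines. The genes were chosen by name, and every probe that carries one of the 8 symbols was taken. The array holds 46632 probes for 34509 symbols. Of the 8 genes, 7 have a probe, with 13 probes in all, and Odc1 has no probe under that symbol. A filter on detection kept 12 of the 13 probes, among 18200 kept probes of all genes.

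The RNA came from femoral head cartilage of TS-4/5∆cat mice aged 21 days, in which the catalytic domains of both Adamts4 and Adamts5 were deleted, and every group carried this deletion, the untreated one included. Explants were left untreated, or were treated for 3 days with 10 ng/ml IL-1α, an inflammatory cytokine, or with 10 µM retinoic acid, a vitamin A derivative, and each treatment was measured on 4 arrays. Batch 1 held the line Donut and batch 2 the line Gertrude, with 2 arrays per treatment in each, so batch and line cannot be told apart. The labels place 4 hips in a well, with a 24 h period in medium with 10% fetal bovine serum before treatment, and do not say which arrays share animals, so a p-value here measures the spread between these arrays. The study's methods give 3 days of culture without serum for the arrays and do not mention the earlier period with serum. They also speak of fewer mice per treatment than there are arrays and of no pooling, which differs from the labels. Some arrays of a group may therefore share an animal, and an SD, SE or p-value given with n = 4 counts arrays. Each array detected between 13786 and 19485 probes, and each array of batch 2 detected more than any array of batch 1. Arrays of 1 treatment and batch correlated at 0.983 to 0.995 over the kept probes, against 0.868 to 0.902 for 1 treatment across the batches. Of 12 chondrocyte markers on the array, 10 were kept, and their summed level was 79200 to 91445 on untreated arrays, 50468 to 63808 with IL-1α and 19833 to 26255 with retinoic acid.

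Nitric oxide is made by nitric oxide synthases, which turn arginine into citrulline with tetrahydrobiopterin as a cofactor. The inducible enzyme, Nos2, is set mainly by how much of it a cell makes, and chondrocytes given IL-1 are a classic source of it, whereas Nos3 is the enzyme of endothelial cells. Arginases draw on the same arginine, so the pathway is often described as a branch point between nitric oxide on one side and ornithine, proline and polyamines on the other.

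The promoters of Gch1 and Ass1 are shown because these members changed on the arrays and the promoter set used (GRCm38.p6) has an entry for each. That set has entries for 3 of the 8 members, Gch1, Ass1 and Odc1, and none for Nos2, Nos3, Asl, Arg1 and Arg2. The RefSeq gene annotation places all 8. Each entry runs from 250 bases before the gene start to 50 bases after it, 5′ to 3′ on the strand of the gene. Capitals mark matches on either strand to a kappaB-type motif, GGGNNNNNCC, and to the E-box CACGTG. Neither window held AGGTCA, a single unit of the retinoic acid response element, or the cyclic AMP element TGACGTCA on either strand. Only these exact letters were searched, so variants of them were not looked for.
Gch1, chr14:47189364-47189663, minus strand: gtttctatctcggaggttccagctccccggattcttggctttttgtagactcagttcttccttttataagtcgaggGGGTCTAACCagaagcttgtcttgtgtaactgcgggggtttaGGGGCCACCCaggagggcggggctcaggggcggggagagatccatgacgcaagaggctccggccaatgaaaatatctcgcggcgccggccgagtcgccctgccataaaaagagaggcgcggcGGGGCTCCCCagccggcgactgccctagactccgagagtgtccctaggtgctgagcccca
Ass1, chr2:31470020-31470319, plus strand: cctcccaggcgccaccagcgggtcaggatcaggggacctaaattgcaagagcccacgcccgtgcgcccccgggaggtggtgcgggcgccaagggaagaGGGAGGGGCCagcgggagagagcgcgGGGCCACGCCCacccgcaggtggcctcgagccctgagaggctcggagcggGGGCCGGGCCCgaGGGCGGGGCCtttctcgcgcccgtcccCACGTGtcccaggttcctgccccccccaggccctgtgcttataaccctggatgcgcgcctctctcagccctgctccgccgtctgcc

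The Gch1 window held 5 kappaB-type matches in 3 places, the nearest at -10 to -1 from the start, where the motif reads on both strands. The Ass1 window held 6 such matches, some of them overlapping, and 1 E-box at -36 to -31. Of 32851 promoters of the same length, 50.8% held a kappaB-type match, 7.15% the E-box, 16.3% the unit AGGTCA and 1.79% the cyclic AMP element. A kappaB-type match is therefore common and describes only the letters of these windows.

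Levels are normalized intensities on the log2 scale, and a probe counts as detected where its detection p was under 0.05. With IL-1α, 5 of the 12 member probes passed an adjusted p of 0.05 against untreated, all 5 of them higher and none lower, and they belong to Nos2, Gch1 and Arg2. Of these 5 probes 3, both of Nos2 and the 1 of Arg2, were detected on no untreated array and were kept only through groups in which they were high, which fixed their direction. Among all kept probes 29.3% passed, 15.2% higher and 14.1% lower. With retinoic acid, 4 of the 12 passed against untreated, Gch1, Arg1 and Arg2 higher and Ass1 lower, beside 35.4% of all kept probes, 18.2% higher and 17.1% lower. The direction of Arg2 was again fixed by the filter. Between retinoic acid and IL-1α, 6 of the 12 passed, Arg1 higher with retinoic acid and Nos2, Gch1 and Ass1 lower, beside 31.1% of all, 15.2% higher and 15.8% lower. Both Nos2 probes were detected only with IL-1α, so the filter fixed their direction here too. Of the 7 member probes detected on all 12 arrays, 2, 3 and 4 passed in these 3 comparisons. Under the same requirement 4053, 4861 and 4246 probes of all genes passed. The number of all such probes is not given, so these member counts cannot be set against a share. The comparisons share arrays, since each treatment enters 2 of them.

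**Figure D1:**
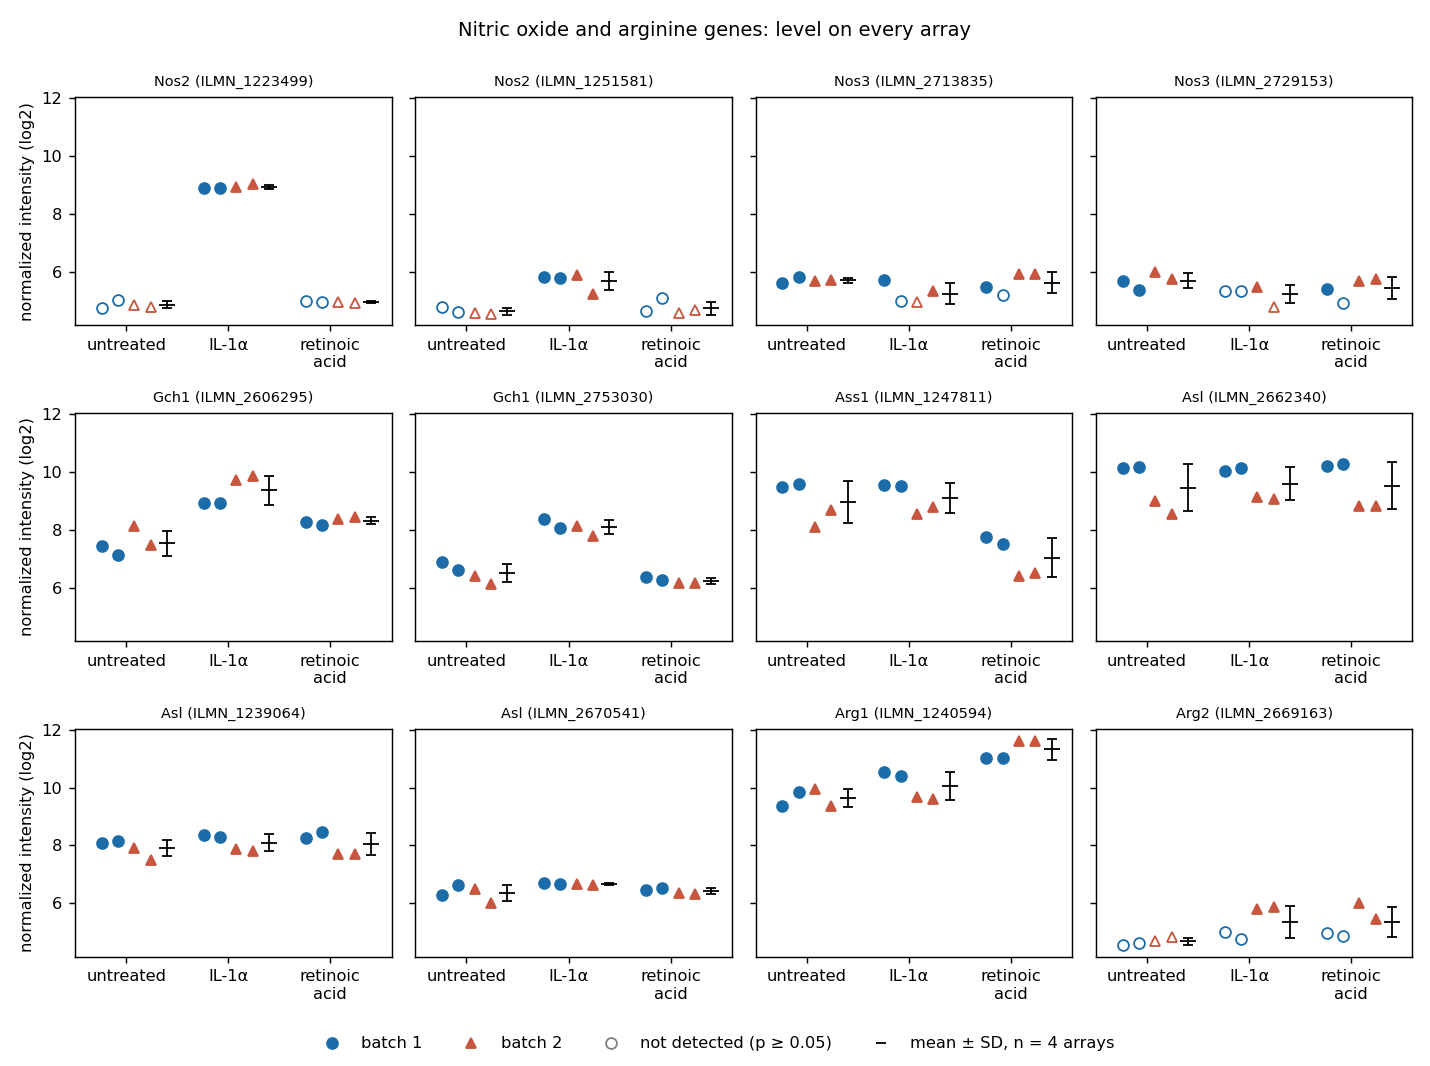
Normalized intensity (log2) of the 12 kept member probes on each of the 12 arrays, by treatment, with circles for batch 1, triangles for batch 2, open symbols where the probe was not detected and a bar for the mean ± SD of 4 arrays. Nos2 was detected only with IL-1α, both Gch1 probes were highest with IL-1α, Ass1 was lowest with retinoic acid and Arg1 was highest with retinoic acid.

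Nos2 was detected on the 4 IL-1α arrays and on none of the 8 others. By probe ILMN_1223499 the untreated levels were 4.75 and 5.02 in batch 1 and 4.87 and 4.80 in batch 2, all below detection. With IL-1α they were 8.89 on both arrays of batch 1 and 8.94 and 9.02 on those of batch 2. The retinoic acid levels were 4.98, 4.96, 4.95 and 4.91, again all below detection. The IL-1α arrays therefore stood apart from both other groups by more than any spread within a group, and their mean was 8.93 ± 0.06 (SD, n = 4). Before normalization the same probe read 343 to 690 with IL-1α. Since the untreated group lay below detection, the rise with IL-1α was at least 14.1-fold (limma adjusted p = 1.21e-10), where the bound sets the IL-1α mean against the lowest detected signal of each untreated array or the probe's own, whichever was higher. IL-1α over retinoic acid was at least 13.4-fold (limma adjusted p = 8.05e-11). The probe entered the tests only through the IL-1α arrays, so these p-values are not independent support for the rise.

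The other Nos2 probe, ILMN_1251581, showed the same order at a dimmer signal. Its levels were 5.82, 5.79, 5.87 and 5.22 with IL-1α, against 4.54 to 4.79 untreated and 4.58 to 5.08 with retinoic acid. The groups did not overlap, but the IL-1α arrays were only just above detection, and the rise over untreated was at least 1.47-fold (limma adjusted p = 0.000167). IL-1α over retinoic acid was at least 1.40-fold by this probe (limma adjusted p = 0.000253). Both Nos2 probes passed the filter on detection only through the IL-1α arrays, so a difference in that direction was built into their being kept. Retinoic acid against untreated gave no fold for Nos2, since neither group was detected. Set against untreated within a batch in the same way, the level of probe ILMN_1223499 with IL-1α was at least 12.2-fold higher in batch 1 and at least 16.3-fold higher in batch 2.

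Macrophages can also make Nos2 and Arg1, and the explants were bulk tissue, in which a change in the number of cells of a type and a change of RNA per cell cannot be told apart. Of 10 macrophage markers on the array 8 were kept, and Cd163 was detected on no array. With IL-1α, 2 of the 8 passed as higher, Cd68 and Cd14, and 5 as lower, and their summed level was 3928 to 6980 against 2145 to 3732 untreated. With retinoic acid, 6 of the 8 passed as higher and none as lower, with a summed level of 3859 to 6420. The part of these cells in the Nos2 and Arg1 levels was not tested. Of 9 neutrophil markers none passed between IL-1α and untreated, while with retinoic acid 5 passed as lower and none as higher.

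Nos3 was dim on all arrays, and no Nos3 difference passed the test over both batches. Probe ILMN_2713835 was at 5.62, 5.83, 5.67 and 5.70 untreated, at 5.72, 5.00, 4.95 and 5.35 with IL-1α, and at 5.46, 5.21, 5.92 and 5.92 with retinoic acid. It was detected on 4 untreated, 2 IL-1α and 3 retinoic acid arrays, and the 3 groups overlapped. IL-1α minus untreated was -0.45 (SE 0.18, limma adjusted p = 0.0835), with a 95% confidence interval from -0.85 to -0.05 that was not adjusted for the number of probes. Probe ILMN_2729153 gave -0.47 for the same difference (SE 0.17, limma adjusted p = 0.0605), and was detected on 4 untreated, 1 IL-1α and 3 retinoic acid arrays. In batch 2 alone, a setting added after the data were seen, both probes passed as lower with IL-1α (-0.68 and -0.92, limma adjusted p = 0.0376 and 0.0244) and differed between the treatments, retinoic acid minus IL-1α being 0.94 and 0.73 (limma adjusted p = 0.0051 and 0.0416). Retinoic acid minus untreated was -0.08 and -0.26 by these probes (limma adjusted p = 0.782 and 0.277). A further Nos3 probe, ILMN_2430542, lay at 4.47 to 4.63 and was detected on none of the 12 arrays.

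Nos3 is known as a gene of vessel walls, so endothelial markers were read beside it. All 9 endothelial markers on the array were kept, and with IL-1α 5 of them passed as lower and none as higher. Their summed level was 3059 to 4393 untreated, 1486 to 2499 with IL-1α and 3831 to 4172 with retinoic acid. The part of endothelial RNA in the Nos3 levels was not tested.

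Gch1 encodes GTP cyclohydrolase 1, the first and rate-limiting enzyme of tetrahydrobiopterin synthesis, and both of its probes were detected on all 12 arrays. Probe ILMN_2606295 was at 7.43 and 7.12 in batch 1 and 8.14 and 7.46 in batch 2 untreated. With IL-1α it was at 8.93, 8.94, 9.73 and 9.86, and with retinoic acid at 8.26, 8.16, 8.37 and 8.45. No group overlapped another, with IL-1α highest, retinoic acid between and untreated lowest. The rise with IL-1α was 1.83 on the log2 scale (SE 0.17, 3.55-fold, limma adjusted p = 5.75e-06), and the rise with retinoic acid was 0.77 (SE 0.17, 1.71-fold, limma adjusted p = 0.00286). Retinoic acid minus IL-1α was -1.05 (limma adjusted p = 0.000331).

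Probe ILMN_2753030 of Gch1 showed the rise with IL-1α and not that with retinoic acid. It was at 6.87, 6.61, 6.41 and 6.12 untreated, at 8.38, 8.07, 8.11 and 7.78 with IL-1α, and at 6.37, 6.26, 6.15 and 6.18 with retinoic acid. The IL-1α arrays stood above all others, while the retinoic acid levels fell within the range of the untreated ones. The rise with IL-1α was 1.59 (SE 0.12, 3.00-fold, limma adjusted p = 1.12e-06). Retinoic acid minus untreated was -0.26 (SE 0.12, limma adjusted p = 0.108), so the Gch1 probes disagree on retinoic acid in sign as well as in the call. In batch 1 alone this probe passed as lower with retinoic acid (-0.39, limma adjusted p = 0.0216). Within the batches, IL-1α minus untreated was 1.66 and 2.00 by the first probe and 1.49 and 1.68 by the other, in batch 1 and batch 2.

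**Figure D2:**
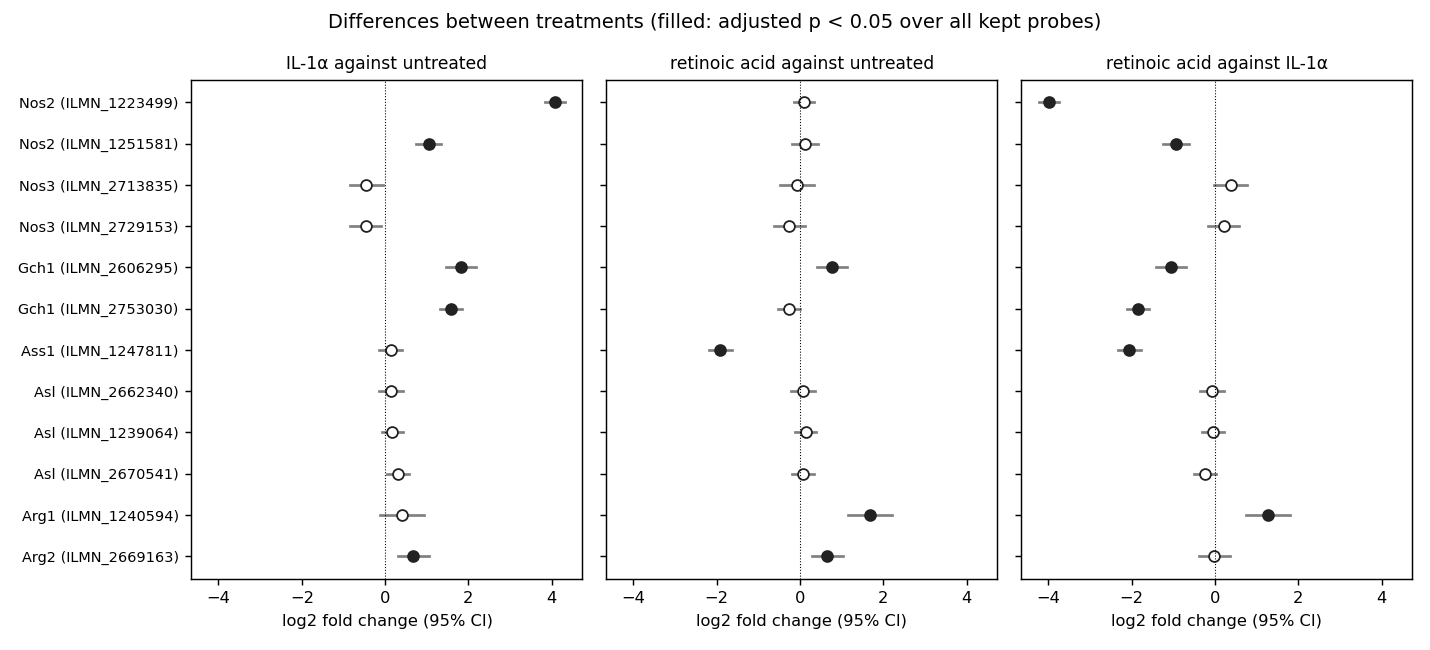
Log2 fold change of each kept member probe in the 3 comparisons, with 95% confidence intervals from the limma model over all 12 arrays, and filled points where the adjusted p was under 0.05. The rises of both Gch1 probes with IL-1α, the fall of Ass1 and the rise of Arg1 with retinoic acid stand clear of 0. Nos2 with IL-1α also lies away from 0, but both its probes were detected and kept only through the IL-1α arrays. The filter therefore fixed its direction, and its plotted size rests on arrays below detection. Points of Arg2 against untreated are likewise set against arrays below detection, with a direction fixed by the filter. The 3 Asl probes lie nearer to 0, and none of them is filled in any panel.

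Ass1, argininosuccinate synthase, joins citrulline and aspartate in the rate-limiting step of arginine recycling. Its probe ILMN_1247811 was at 9.49 and 9.59 in batch 1 and 8.08 and 8.67 in batch 2 untreated. With IL-1α the levels were 9.54, 9.52, 8.55 and 8.77, within the untreated range. With retinoic acid they were 7.73, 7.52, 6.40 and 6.50, below every other array. Ass1 fell by 1.92 with retinoic acid (SE 0.13, 3.78-fold lower, limma adjusted p = 1.31e-07), at -1.91 within batch 1 and -1.92 within batch 2. IL-1α minus untreated was 0.14 (SE 0.13, limma adjusted p = 0.451, 95% confidence interval -0.14 to 0.41). Retinoic acid lay below IL-1α at -2.06 (SE 0.13, limma adjusted p = 6.83e-08). All 10 kept chondrocyte markers also passed as lower with retinoic acid, and their part in the Ass1 level was not tested.

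Asl, argininosuccinate lyase, completes the recycling by releasing arginine, and none of its 3 probes passed in any comparison. Probe ILMN_2662340 differed more between batches than between treatments, at a mean of 10.14 in batch 1 and 8.77 in batch 2 untreated, 10.08 and 9.09 with IL-1α and 10.23 and 8.81 with retinoic acid. Over the 3 probes, IL-1α minus untreated was 0.13, 0.18 and 0.31. The confidence intervals, not adjusted for the number of probes, were -0.15 to 0.42, -0.08 to 0.43 and 0.05 to 0.58. The last, of probe ILMN_2670541, held only positive values (limma adjusted p = 0.072). Retinoic acid minus untreated was 0.06, 0.13 and 0.06, with intervals from -0.22 to 0.39. The largest single shift was in probe ILMN_2670541, which lay at 6.64 to 6.71 with IL-1α, 6.03 to 6.64 untreated and 6.31 to 6.53 with retinoic acid. Its IL-1α and retinoic acid arrays did not overlap, with a difference of -0.25 (exact permutation p = 0.0286, limma adjusted p = 0.146). The smallest p that an exact two-sided permutation test of 4 against 4 arrays can give is 0.0286. A fall of the size seen in Ass1 with retinoic acid lay outside the interval of each Asl probe.

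Arg1, the cytosolic arginase, was detected on every array and was highest with retinoic acid. Probe ILMN_1240594 was at 9.37 and 9.85 in batch 1 and 9.96 and 9.36 in batch 2 untreated. With retinoic acid it was at 11.01 and 11.02 in batch 1 and at 11.62 on both arrays of batch 2, above every other array. The rise was 1.69 (SE 0.24, 3.22-fold, limma adjusted p = 0.000133), 1.41 within batch 1 and 1.96 within batch 2. With IL-1α the levels were 10.52 and 10.38 in batch 1, above both untreated arrays of that batch, and 9.67 and 9.59 in batch 2, within the untreated range. IL-1α minus untreated was 0.41 over both batches (SE 0.24, limma adjusted p = 0.227), 0.85 within batch 1 and -0.03 within batch 2. The difference between these within-batch values was -0.87 (limma adjusted p = 0.0823).

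Retinoic acid against IL-1α was the only comparison in which a member differed between the batches by the test. Arg1 with retinoic acid exceeded Arg1 with IL-1α by 1.28 (SE 0.24, limma adjusted p = 0.0013), by 0.56 within batch 1 and 1.99 within batch 2. The difference between the batches was 1.43 (limma adjusted p = 0.00511), and Arg1 was the 1 member probe of 12 with such a difference, beside 8.76% of all kept probes. For IL-1α against untreated 0 of the 12 member probes differed between the batches, beside 4.82% of all, and for retinoic acid against untreated 0 of 12, beside 2.86%. The macrophage marker sum, given by batch, was 3160 to 3732 untreated, 6911 to 6980 with IL-1α and 6305 to 6420 with retinoic acid in batch 1, and 2145 to 2357, 3928 to 4461 and 3859 to 4611 in batch 2. This sum follows the brightest markers, and the single markers did not move together. Between retinoic acid and IL-1α, 4 of the 8 passed as higher with retinoic acid, 1 as lower and 3 did not pass. The neutrophil marker sum was 15060 to 17696 untreated, 18307 to 18747 with IL-1α and 6273 to 6366 with retinoic acid in batch 1, and 10387 to 12202, 17591 to 18677 and 15317 to 16182 in batch 2. Their part in the batch difference of Arg1 was not tested.

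**Figure D3:**
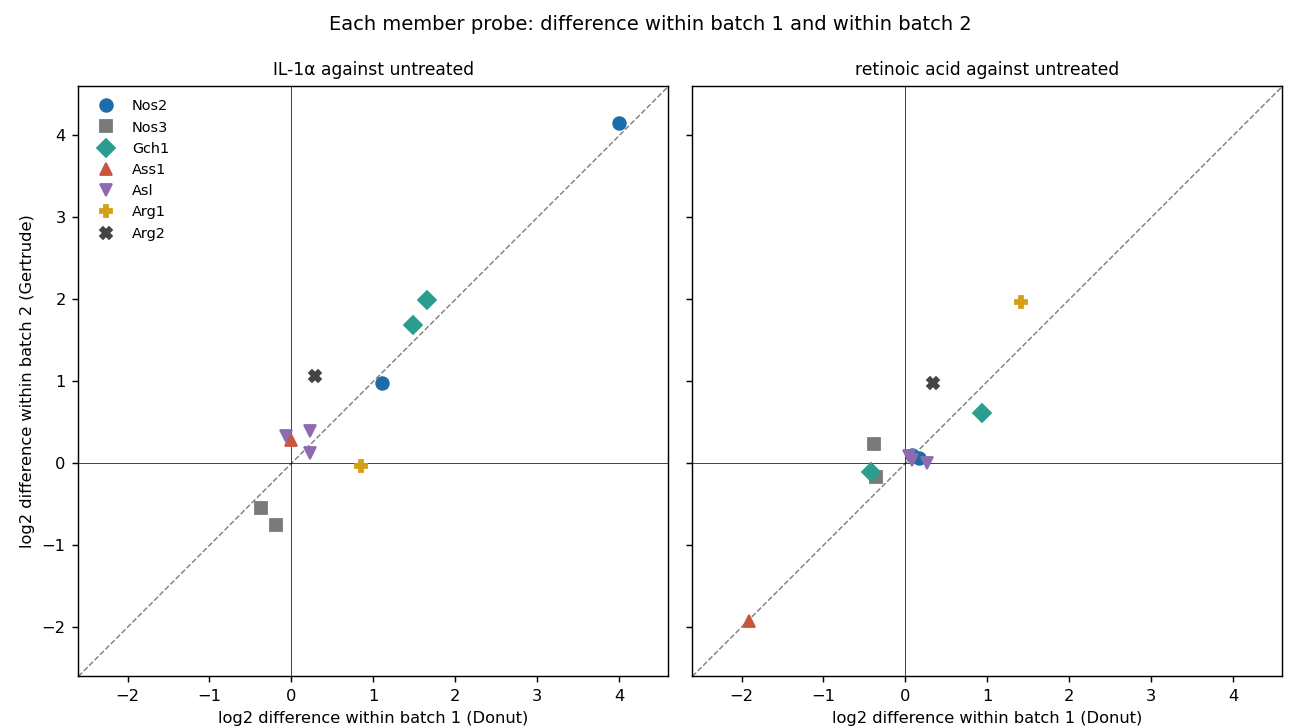
Log2 difference from untreated within batch 1 (line Donut, horizontal axis) and within batch 2 (line Gertrude, vertical axis) for each kept member probe, IL-1α on the left and retinoic acid on the right, with the dashed line marking equal values. Points of Nos2 and Arg2 are set against untreated arrays below detection. Arg1 with IL-1α lies at 0.85 and -0.03, away from the line.

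Arg2, the mitochondrial arginase, was detected on 4 of the 12 arrays, the IL-1α and retinoic acid arrays of batch 2. Its probe ILMN_2669163 was at 4.58, 4.64, 4.72 and 4.83 untreated, none of them detected. With IL-1α it was at 5.01 and 4.78 in batch 1, below detection, and at 5.81 and 5.87 in batch 2. With retinoic acid it was at 4.99 and 4.89 in batch 1, below detection, and at 6.03 and 5.48 in batch 2. The difference from untreated passed with IL-1α (limma adjusted p = 0.0111), although the groups overlapped, and with retinoic acid (limma adjusted p = 0.0098), with no overlap. Within batch 2, the batch in which both treated groups were detected, the level was at least 1.84-fold that of untreated with IL-1α and at least 1.74-fold with retinoic acid, and in batch 1 no fold can be given. The probe was kept only through the treated arrays of batch 2, and these calls rest on a signal near the limit of detection. Retinoic acid and IL-1α differed by -0.02 (limma adjusted p = 0.951, 95% confidence interval -0.39 to 0.36).

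Whether the 4 arrays of each group overlapped was counted beside the model. IL-1α and untreated did not overlap in 4 of the 12 member probes, against 13.5% of all kept probes, and retinoic acid and untreated in 4, against 16.9%. Retinoic acid and IL-1α did not overlap in 7, against 17.7%. Both Nos2 probes are among those apart in each comparison with IL-1α, and Arg2 is among those apart between retinoic acid and untreated. These probes were kept only through groups in which they were high, which favoured their being apart, so the counts are not a test. Arg2 with IL-1α was called without being apart, and Asl probe ILMN_2670541 was apart between the treatments without being called.

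A list of other genes of nitric oxide, arginine and polyamine metabolism was counted beside the members. Of 68 genes on the array 49 were kept. Each was represented by its brightest kept probe, while the shares over all kept probes take every probe, so the shares are unlike measures. The list was chosen with earlier results of these data known. With IL-1α 8 of the 49 passed as higher, 8 as lower and 33 did not pass, so that 32.7% passed beside 29.3% of all kept probes, and the median difference was -0.02, against 0.02 over all kept probes. With retinoic acid 11 passed as higher, 12 as lower and 26 did not pass, or 46.9% passed beside 35.4% of all, with a median of -0.04 against 0.02. Between retinoic acid and IL-1α 9 passed as higher, 15 as lower and 25 did not pass, or 49.0% passed beside 31.1% of all.

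The arginine transporter Slc7a2 rose with IL-1α and Slc7a3 fell with retinoic acid. Slc7a2, a cationic amino acid transporter that supplies arginine to Nos2 in stimulated cells, was at 5.11, 5.87, 6.69 and 6.86 untreated, with the lowest of these below detection. With IL-1α it was at 9.24, 9.35, 9.15 and 8.77, above every other array. With retinoic acid it was at 4.92, 5.08, 6.05 and 5.75. Slc7a2 rose by 2.99 with IL-1α (SE 0.27, 7.94-fold, limma adjusted p = 5.65e-06), by 3.80 within batch 1 and 2.18 within batch 2, and the difference between the batches passed the test (limma adjusted p = 0.00866). Retinoic acid minus untreated was -0.69 for this gene (limma adjusted p = 0.0686).

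Slc7a3, another cationic amino acid transporter, was at 8.89, 9.07, 9.60 and 9.26 untreated, at 8.62, 8.50, 9.09 and 8.83 with IL-1α and at 5.90, 6.04, 6.56 and 6.20 with retinoic acid. The retinoic acid arrays lay below all others, and the gene fell by 3.03 (SE 0.11, 8.15-fold lower, limma adjusted p = 6.18e-10), at -3.01 within batch 1 and -3.05 within batch 2. With IL-1α it fell by 0.44 (SE 0.11, limma adjusted p = 0.00788), and those arrays overlapped the untreated ones. Of the 5 transport genes kept, all passed between retinoic acid and IL-1α, 1 higher and 4 lower, beside 31.1% of all kept probes.

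Of the genes that carry the nitric oxide signal, 5 were kept. With IL-1α 2 of them passed as lower and none as higher, beside 29.3% of all kept probes that passed. With retinoic acid 3 passed as lower and 1 as higher, beside 35.4% of all. Gucy1a3, a subunit of the guanylyl cyclase that senses nitric oxide, went from 7.28 ± 0.15 (SD, n = 4) untreated to 5.07 ± 0.11 with IL-1α, a difference of -2.21 (SE 0.13, limma adjusted p = 1.54e-07). It was detected on 1 of the 4 IL-1α arrays, so its size there is set near the limit of detection. Prkg1, a kinase that cyclic GMP activates, fell by 1.65 with IL-1α (SE 0.19, limma adjusted p = 5e-05) and by 1.17 with retinoic acid (limma adjusted p = 0.000416). Prkg2, the related kinase known from growth plate chondrocytes, fell by 1.82 with retinoic acid (SE 0.18, limma adjusted p = 6.13e-06) and differed by 0.21 with IL-1α (limma adjusted p = 0.414).

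**Figure D4:**
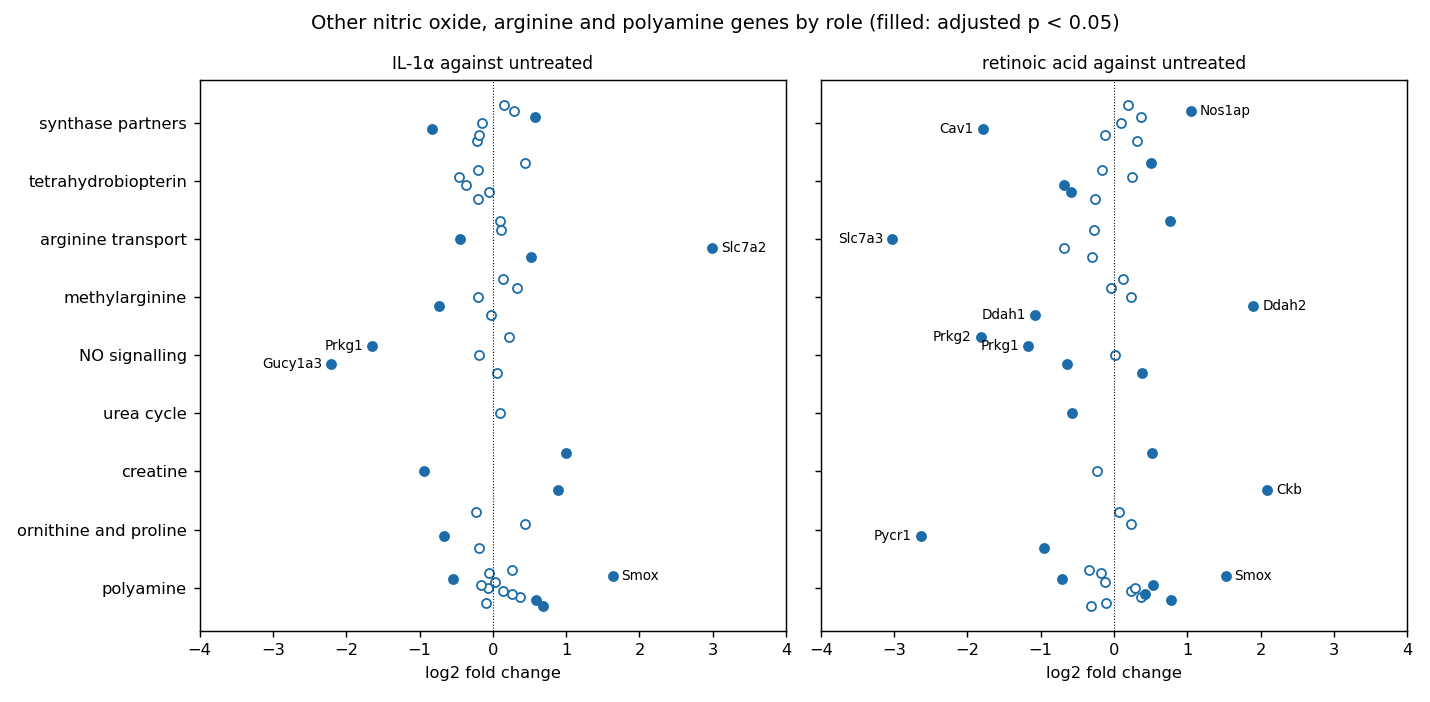
Log2 fold change against untreated of the 49 kept list genes other than the members, grouped by role, with IL-1α on the left and retinoic acid on the right, filled points where the limma adjusted p was under 0.05 and names where the change was also at least 1. Slc7a2 stands out with IL-1α at 2.99, and Slc7a3 at -3.03 and Pycr1 at -2.64 with retinoic acid.

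The enzymes that clear methylarginines, natural inhibitors of the synthases, changed in opposite directions with retinoic acid. Ddah1 fell by 1.08 (SE 0.14, limma adjusted p = 6.1e-05) and Ddah2 rose by 1.90 (SE 0.15, limma adjusted p = 5.06e-07), by 1.83 within batch 1 and 1.96 within batch 2. With IL-1α, Ddah2 fell by 0.74 (limma adjusted p = 0.00245) and Ddah1 differed by -0.02 (limma adjusted p = 0.923). Among partners of the synthases, Cav1, caveolin-1, which binds Nos3, fell by 1.79 with retinoic acid (SE 0.13, limma adjusted p = 3.27e-07). Its arrays differed more between batches, at 6.60 and 7.06 in batch 1 and 10.27 and 10.34 in batch 2 untreated, so the groups overlapped. Nos1ap, an adaptor of the neuronal synthase, was undetected untreated and at least 1.78-fold higher with retinoic acid (limma adjusted p = 0.00293). It was detected on 4 retinoic acid arrays and 1 IL-1α array. Its probe was thus kept only through the retinoic acid arrays, so a rise was built into its being kept. Against the undetected untreated arrays the difference was 1.75 within batch 1 and 0.35 within batch 2. Nos1ap did not pass in batch 2 alone (limma adjusted p = 0.0714).

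Pycr1, Smox and Ckb, of proline, polyamine and creatine metabolism, each passed with both treatments. Pycr1, which makes proline from the product of ornithine, fell by 2.64 with retinoic acid (SE 0.11, limma adjusted p = 2.68e-09), to a level detected on 2 of the 4 arrays, and by 0.67 with IL-1α (limma adjusted p = 0.000822). Smox, spermine oxidase, rose with both treatments, by 1.63 with IL-1α (SE 0.13, limma adjusted p = 1.21e-06) and by 1.52 with retinoic acid (SE 0.13, limma adjusted p = 8.55e-07), 2 comparisons that share the untreated arrays. Between the treatments Smox differed by -0.11 (limma adjusted p = 0.557). Ckb, a creatine kinase, rose by 2.09 with retinoic acid (SE 0.18, limma adjusted p = 9.92e-07) to a level of 13.6, close to the top of the normalized scale at 14.2, and by 0.89 with IL-1α (limma adjusted p = 0.00223). Of 13 polyamine genes kept, 3 passed as higher and 1 as lower with IL-1α, and 4 and 1 with retinoic acid. Among all kept probes 29.3% and 35.4% passed in these comparisons.

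Over the 12 arrays, with the mean of each batch taken off, the probes most like each member were found by Pearson correlation, as a description. The arrays share the treatments, so any gene with the same response scores high. Both probes of Vnn3, a vanin-family gene, were most like Nos2 probe ILMN_1223499, at 0.9997 and 0.9992. Cd14, the co-receptor for bacterial lipopolysaccharide, was most like Gch1 probe ILMN_2606295 at 0.985, and Afmid, of the kynurenine pathway, was most like Gch1 probe ILMN_2753030 at 0.987. Pmp22 was most like Ass1 at 0.995, and Lama5, a laminin chain, was most like Arg1 at 0.986, followed by Cd79b and Plk2. For Arg2 the first was Tmem142c at 0.966. The highest values for the 2 kept Nos3 probes were lower, at 0.889 and 0.880.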

How the data were processed

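RNA of 12 cartilage explant samples, 4 per treatment, was measured on Illumina mouse bead arrays. The authors deposited probe intensity values on a linear scale, with no background subtraction or normalization, and beside each a detection score, of which 1 minus the score served as the detection p. Software that summarised the beads is not given in the sources used here.

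The intensities were background corrected and quantile normalized with neqc of limma 3.58.1 in R 4.3.3, with an offset of 16, which shrinks differences of dim probes. A probe entered the tests if 4 or more of the 12 arrays had a detection p under 0.05. The model (lmFit, eBayes) held treatment and the 4 combinations of batch with replicate number, after the description in the study's methods. Adjusted p-values are Benjamini-Hochberg values over all 18200 kept probes, called at 0.05. A model of 6 treatment and batch means tested whether differences varied between the batches. Functions were tested on simulated data.

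Named were all probes of the members, list genes whose brightest kept probe passed with a log2 change of at least 1 against untreated, and the 3 probes most like each member, of which a few are given. Members and lists were chosen with earlier results of these data known. Alternatives covered background, scaling, offset, filter, model and left-out arrays. Within-batch fits were added after the data were seen.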

Additional observations from a re-analysis of the deposited data

Results flagged for a closer look

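In the dim Nos2 probe ILMN_1251581, 1 IL-1α array, batch 2 replicate 2, lay at 5.22, well below the other 3, which were at 5.82, 5.79 and 5.87. It was the 1 array that stood apart among 72 groups of 4 arrays examined, and chance sets about 1 in 20 such groups apart. The brighter Nos2 probe, ILMN_1223499, was at 9.02 on the same array, the highest of its group.

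The difference of retinoic acid from IL-1α in Arg1 was larger in batch 2 than in batch 1 by 1.43 (limma adjusted p = 0.00511), with 0.56 within batch 1 and 1.99 within batch 2. Batch and line are the same division of the arrays here and cannot be told apart.

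Of the list genes, Slc7a2 differed between the batches in IL-1α against untreated, by -1.62 in batch 2 minus batch 1, and in retinoic acid against IL-1α, by 1.24. Nos1ap differed in retinoic acid against untreated, by -1.40, and in retinoic acid against IL-1α, by -0.98. Prkg2 differed in retinoic acid against untreated, by -1.03, and Ckb in retinoic acid against IL-1α, by 0.87.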

How the results depend on the processing

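Of the 36 member differences 15 passed, and 12 of these passed with the same sign under every alternative that kept the probe, of 22 planned and 2 added after the data were seen. The other 3 kept their sign. Arg2 with IL-1α had an adjusted p of 0.0579 under median scaling, 0.0635 with no filter and 0.257 with treatment as the only term, and with retinoic acid 0.058 and 0.224 under the last 2 of these. Gch1 probe ILMN_2606295 with retinoic acid had 0.0916 with treatment only and 0.0725 in batch 2 alone. In batch 1 alone Arg1 passed with IL-1α (0.92), and in batch 2 alone both kept Nos3 probes did (-0.68 and -0.92), as 1 of them did without IL-1α batch 1 replicate 1 (-0.67) or 2 (-0.66) or without retinoic acid replicate 2 of batch 1 (-0.48) or batch 2 (-0.44). Nos3 probe ILMN_2713835 also passed between the treatments without IL-1α batch 1 replicate 1 (0.58). With normalization within each batch, the batch difference also passed for Nos2 probe ILMN_1223499 (0.84 and, between the treatments, -0.77), Arg2 (1.15 with IL-1α, 1.00 with retinoic acid) and Nos3 probe ILMN_2713835 (0.96 between the treatments). Of 14 named list differences 11 passed throughout, while Nos1ap, Cav1 and Ddah2 did not with treatment only, nor Nos1ap in batch 2 alone (0.45).

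Member probes that passed with IL-1α numbered 2 where detection on all 12 arrays was required, 3 at a detection p under 0.01, and 2 to 6 with 1 array left out. They numbered 2 without IL-1α batch 2 replicate 1 or 2, since Nos2 and Arg2 then lacked the 4 detected arrays. With treatment only, 2 passed with retinoic acid. Over all probes, the count with IL-1α was 3104 under median scaling, 1327 with treatment only and 3009 in batch 2 alone, against 5334. With treatment only it was 2215 for retinoic acid, against 6436, and 1984 between the treatments, against 5656. With detection on all 12 arrays, 399, 115 and 885 probes differed between the batches, against 878, 521 and 1594. Median scaling moved the median difference of retinoic acid from 0.02 to 0.14 and the share of calls that were higher from 51.6% to 65.6%, and from 49.0% to 65.6% between the treatments. Arg1 was then at 1.93 and Ass1 at -1.78 with retinoic acid.

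Signs turned only in differences that did not pass. Under median scaling they were Nos3 probe ILMN_2713835 with retinoic acid (0.12) and, between the treatments, Asl probes ILMN_1239064 (0.050) and ILMN_2662340 (0.066) and Arg2 (0.12). Normalization within each batch turned that Nos3 difference (0.013) and the batch differences of Nos2 probe ILMN_1251581 (0.57 and, between the treatments, -0.59) and Ass1 (0.13). In batch 1 alone, Ass1 (-0.0086) and Asl probe ILMN_2662340 (-0.069) turned with IL-1α, and, between the treatments, both Asl probes (0.032 and 0.16) and both Nos3 probes (-0.018 and -0.0995). In batch 2 alone, Arg1 with IL-1α (-0.024) and Nos3 probe ILMN_2713835 with retinoic acid (0.27) turned. With 1 array left out, ranges with retinoic acid were -0.22 to 0.077 for that Nos3 probe, -0.039 to 0.15 for Asl probe ILMN_2662340 and -0.025 to 0.14 for ILMN_2670541. Between the treatments they were -0.15 to 0.029 for Asl probe ILMN_2662340, -0.11 to 0.027 for ILMN_1239064, -0.0019 to 0.40 for Nos3 probe ILMN_2729153 and -0.14 to 0.026 for Arg2. Apart from causes named, none was tested.

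The replicate block follows the study's methods. Deviations of arrays with the same number correlated at 0.0027 to 0.062 in batch 1 and -0.11 to 0.39 in batch 2. With so few arrays per treatment and batch, these values cannot show whether such arrays share more than a number. With no replicate block, 5702, 6752 and 5938 probes passed in the 3 comparisons, and 5, 4 and 6 member probes, as with it.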
